A study of Mus musculus with 8 samples.

Results

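Of 56 mouse genes of mitosis, the spindle and the kinetochore, taken by gene symbol from a fixed list, 43 had values in the table of 10987 transcripts (10982 gene symbols) analysed here. The other 13 were not analysed here: Ccnb2, Cdk1, Cdc25c, Foxm1, Espl1, Cenpk, Spc24, Incenp, Kif20a, Kif20b, Kif23, Anln and Mki67. The values came from 4 cultures of one cell model, 2 of oligodendrocyte progenitor cells (OPCs) and 2 of oligodendrocytes, and from each culture both ribosome footprints and total RNA were sequenced, giving 8 libraries. The OPCs were derived from epiblast stem cells of strain 129S/SvEv and grown with 20 ng/mL bFGF and 20 ng/mL PDGFA. Oligodendrocytes were made from the OPCs in medium with 100 ng/mL noggin, 100 ng/mL IGF-1, 10 uM cyclic AMP, 10 ng/mL NT3 and 40 ng/mL T3, the thyroid hormone that drives their maturation, whose listed supplements hold neither of the 2 growth factors. Several dishes were pooled for a lysate, as the study's methods state, and the study describes part of the cells in its oligodendrocyte cultures as still undifferentiated OPCs. Levels are in FPKM, which scales reads to the length of a transcript and to the size of the library, so levels can be set side by side between genes.

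Mitosis follows a fixed order. Cyclin B with its kinase starts it, Polo-like and Aurora kinases build the spindle, condensin compacts the chromosomes, and kinetochores tie each chromosome to microtubules. A checkpoint made of Mad and Bub proteins holds back the anaphase-promoting complex until every kinetochore is attached, after which securin and cyclin B are destroyed and the cell divides. Many of these genes are transcribed only late in the cell cycle, and their promoters are known for a pair of short elements, the CHR (cell cycle genes homology region) and the CCAAT box. OPCs are dividing cells, and oligodendrocytes that make myelin have left the cell cycle.

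The comparison between OPCs and oligodendrocytes shows how this set of genes differs between the dividing progenitor and its differentiated product. Oligodendrocyte markers separated the cultures: the 9 markers with values summed to 47.8 and 49.2 FPKM in the OPC RNA-seq libraries and to 4063.1 and 3632.6 FPKM in those of oligodendrocytes. The 6 OPC markers with values did not stand lower in oligodendrocytes, with sums of 1022.9 and 890.1 FPKM in OPCs and of 1459.9 and 1499.5 FPKM in oligodendrocytes. Olig1 and Ptprz1 were nearly level, and Gpr17, Lhfpl3, Pdgfra and Sox10 were higher in oligodendrocytes. Olig1 alone stood at 693 and 571 FPKM in OPC RNA-seq and at 735 and 686 FPKM in oligodendrocytes. Gpr17 went from 8.38 and 4.91 FPKM to 221 and 271 FPKM. These sums do not measure how many progenitors remained. The 2 microglial markers with values stood between 0 and 0.142 FPKM in RNA-seq. The 4 astrocyte markers with values summed to 346.2 and 341.2 FPKM in OPC RNA-seq and to 329 and 264.2 FPKM in oligodendrocytes. Among them Gfap was at 0.155 and 0 FPKM in OPCs and at 14.2 and 2.11 FPKM in oligodendrocytes, and Slc1a3 at 136.4 and 181.3 FPKM in OPCs and at 74.4 and 74.3 FPKM in oligodendrocytes. Depth, estimated from the spacing of low values with a possible factor of 2, ran from 166.2 to 249.7 Mb of aligned bases in OPC libraries and from 77.9 to 214.2 Mb in oligodendrocyte libraries. Both libraries of oligodendrocyte replicate 2 were the shallowest of their kind. In its footprint library, 507 transcripts with at least 5 FPKM in replicate 1 were listed at 0, the abundant housekeeping transcript of Ptma among them, and between 4 and 31 in each of the other footprint libraries. For that reason a 0 is called "listed at 0" here and not taken as absence.

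RNA of the mitotic genes stood lower in oligodendrocytes for all 43 genes with values. In RNA-seq, 40 of the 43 fell past the threshold and 0 rose (limma on log2(FPKM + 0.1), Benjamini-Hochberg adjusted p under 0.05 over all transcripts tested). Among all 8346 transcripts tested, 20.2% fell and 13% rose, so that 60.9% of the calls were lower, or 48.5% when libraries were scaled by the median of their ratios, which moved the median of all transcripts from -0.23 to -0.05 and left 40 of the 43 called. The median log2 fold change of the 43 was -2.34, with quartiles of -2.76 and -2.08, beside -0.23 over all transcripts. In footprints, 31 of the 43 fell and 0 rose, beside 10.8% falling and 12.8% rising of 8342 transcripts, and the medians were -2.64 and -0.16. Both OPC values lay above both oligodendrocyte values for 43 of 43 genes in RNA-seq and for 43 of 43 in footprints. The same held for 44.2% of all transcripts in RNA-seq and for 37.9% in footprints. Over the 37 genes above 0 in every library, the median ratio of the OPC mean to the oligodendrocyte mean was 4.82 in RNA-seq and 5.34 in footprints, and the median log2 fold changes were -2.25 and -2.46. In bulk cultures, fewer dividing cells and less of each RNA per cell cannot be told apart.

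How many calls passed the threshold depended on single libraries. With OPC replicate 1 left out, 10 of the 43 genes passed in RNA-seq and 0 in footprints, and with OPC replicate 2 left out, 4 and 0. Without oligodendrocyte replicate 2, 41 passed in RNA-seq and 20 in footprints, and without oligodendrocyte replicate 1, 42 and 42. Over 10 alternative settings, the log2 fold change stayed below 0 for 42 of the 43 genes in RNA-seq, Bub3 being the exception, and for 43 in footprints. With 2 cultures in each group, an exact permutation test of a single gene cannot go below p = 0.333.

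As a share of the whole, the 43 genes took up 0.611% and 0.73% of the FPKM in the table in the 2 OPC RNA-seq libraries. In oligodendrocyte RNA-seq their share was 0.215% in replicate 1 and 0.161% in replicate 2. Footprints gave 0.505% and 0.618% in OPCs and 0.175% and 0.127% in oligodendrocytes. The median member stood at percentile 85.9 and 87.2 of all transcripts by level in OPC RNA-seq. In oligodendrocytes it stood at percentile 60.2 and 49.7, so that the mitotic genes went from among the higher transcripts of the OPC to the middle of the range.

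**Figure D1:**
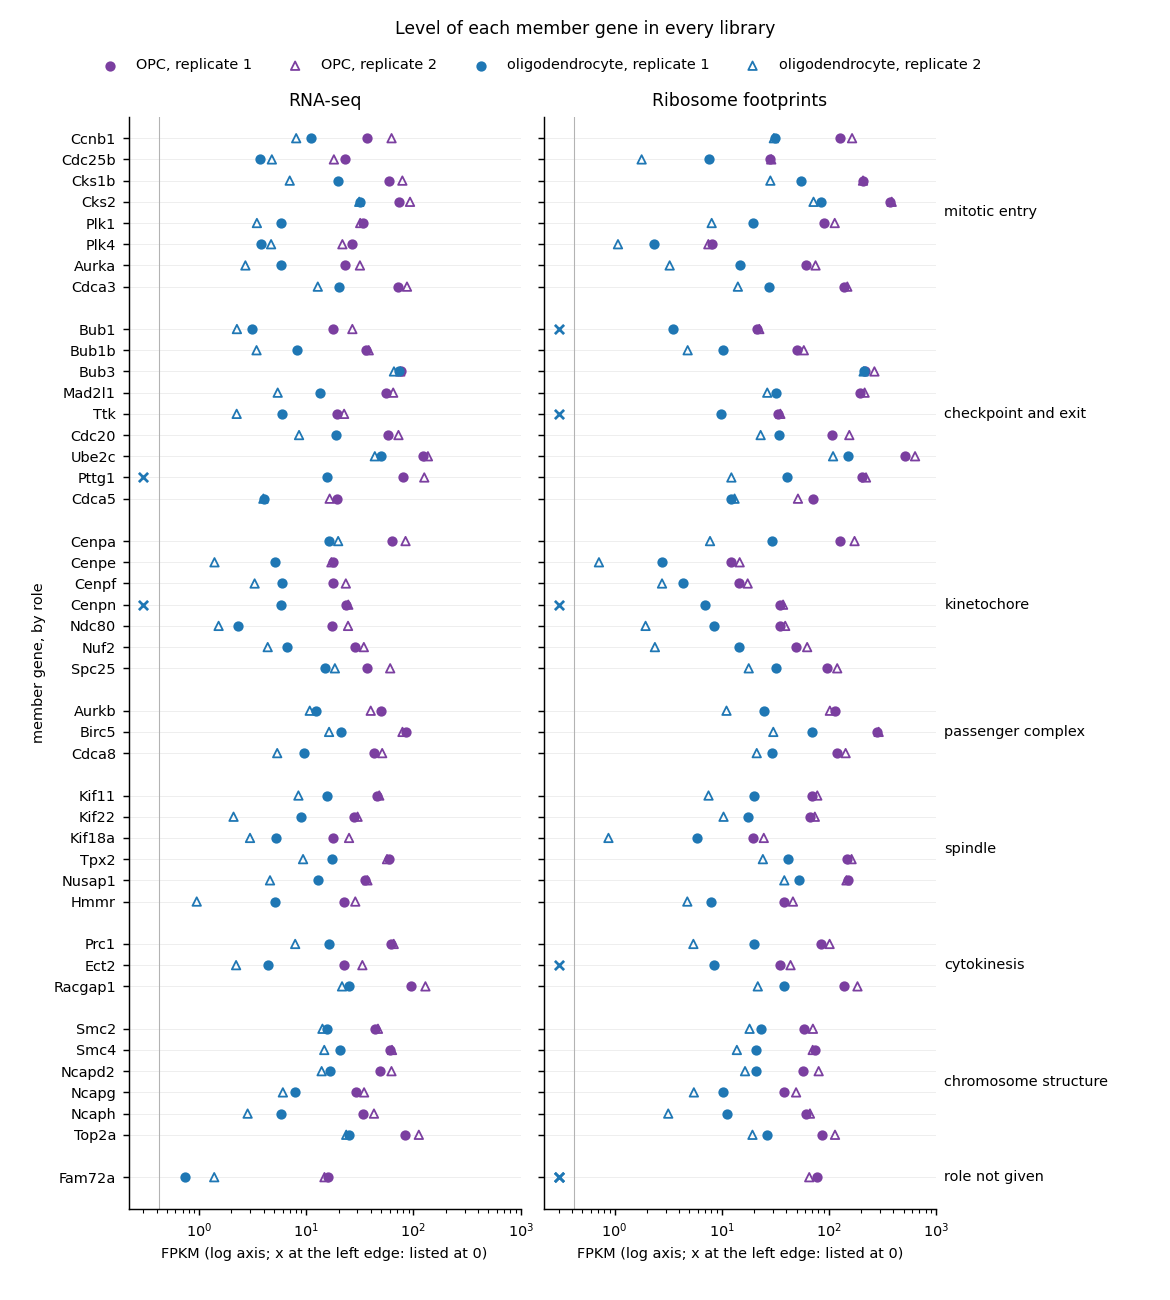
FPKM of each of the 43 genes in every library on a log axis, RNA-seq on the left and footprints on the right, with genes grouped by role, OPCs in purple, oligodendrocytes in blue, and crosses at the left edge for values listed at 0. All OPC points lie to the right of the oligodendrocyte points of the same gene, and Bub3 is the gene whose 4 RNA-seq points nearly coincide.

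Genes that drive entry into mitosis fell as a group: 8 of 8 with values passed in RNA-seq and 5 of 8 in footprints, with median log2 fold changes of -2.42 and -2.62. Cdca3, a factor that helps to degrade the mitotic inhibitor Wee1, stood at 72.5 and 87.0 FPKM in OPC RNA-seq and at 20.2 and 12.8 FPKM in oligodendrocytes (log2 fold change -2.30, SE 0.26, adjusted p = 0.00285, limma). Cks2, a small subunit that binds cyclin-dependent kinases, went from 72.7 and 92.9 FPKM to 31.5 and 31.2 FPKM. Its RNA-seq log2 fold change of -1.39 (SE 0.18) was the smallest past the threshold among the 43 genes, and in footprints it went from 375 and 386 FPKM to 84.0 and 71.9 FPKM, a log2 fold change of -2.29 (SE 0.13). Its paralog Cks1b was at 59.7 and 78.8 FPKM in OPC RNA-seq and at 19.9 and 7.0 FPKM in oligodendrocytes, with a wider gap between the oligodendrocyte cultures. Ccnb1, which encodes cyclin B1, had 37.1 and 62.5 FPKM in OPC RNA-seq against 11 and 8.04 FPKM in oligodendrocytes. In footprints, Ccnb1 had 127 and 165 FPKM against 31.2 and 30.7 FPKM, a log2 fold change of -2.22 (SE 0.18, adjusted p = 0.00708, limma). Plk1, the Polo-like kinase of the spindle and centrosome, fell in both kinds of library, by 2.83 (SE 0.30) in RNA-seq and by 2.99 (SE 0.49) in footprints on the log2 scale. Aurka, the Aurora kinase of the spindle poles, Plk4, which starts centriole duplication, and Cdc25b, a phosphatase that activates the cyclin B kinase, passed in RNA-seq and missed the threshold in footprints, where their log2 fold changes were -3.25 (SE 0.79), -2.22 (SE 0.64) and -2.92 (SE 0.77). In footprints Aurka stood at 61.1 and 75.1 FPKM in OPCs and at 15.0 and 3.27 FPKM in oligodendrocytes, with an adjusted p of 0.0551 (limma).

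Among the genes of the spindle checkpoint and of the exit from mitosis, 7 of 9 fell in RNA-seq and 6 of 9 in footprints, with medians of -2.48 and -2.81. Ube2c, the ubiquitin-conjugating enzyme of the anaphase-promoting complex, had the highest OPC level of the 43 genes, with 122 and 136 FPKM in RNA-seq and 516 and 637 FPKM in footprints. In oligodendrocytes it was at 50.1 and 43.6 FPKM in RNA-seq and at 151 and 109 FPKM in footprints, and its log2 fold changes were -1.46 (SE 0.16) and -2.15 (SE 0.22). Cdc20, the activator that brings the complex its targets, went from 57.3 and 72.5 FPKM to 18.9 and 8.56 FPKM in RNA-seq, and its footprints from 108 and 155 FPKM to 34.4 and 23.1 FPKM. Both passed in both kinds of library. Mad2l1, which encodes the checkpoint protein Mad2, fell by 2.81 on the log2 scale in RNA-seq (SE 0.42) and in footprints (SE 0.16). Its kinase partners Bub1b and Bub1 fell in RNA-seq by 2.77 (SE 0.42) and 3.00 (SE 0.33). Cdca5, or sororin, which protects cohesion between sister chromatids, fell by 2.14 (SE 0.25) in RNA-seq and by 2.24 (SE 0.24) in footprints.

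Bub3 stood apart from its partners. This WD-repeat protein carries Bub1 and BubR1 to the kinetochore, and RNA-seq put it at 77 and 75.3 FPKM in OPCs against 73.0 and 65.8 FPKM in oligodendrocytes. Footprint levels were 219 and 266 FPKM against 212 and 211 FPKM. The OPC values lay above the oligodendrocyte values in both, by small margins. The log2 fold changes were -0.14 (SE 0.15, adjusted p = 0.512, limma) and -0.19 (SE 0.14, adjusted p = 0.364, limma), close to the medians of all transcripts, -0.23 and -0.16. With libraries scaled by the median of their ratios, the sign in RNA-seq turned, at a log2 fold change of 0.04. In oligodendrocytes Bub3 was therefore the highest of the 43 genes, ahead of Ube2c, which follows at 50.1 and 43.6 FPKM.

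Pttg1, the gene of securin, the inhibitor of separase, was one of 6 genes listed at 0 in some library. It had 79.0 and 126 FPKM in OPC RNA-seq and 15.5 FPKM in oligodendrocyte replicate 1, and was listed at 0 in replicate 2. Its footprints in the same cultures were 202 and 222 FPKM against 41.1 and 12.3 FPKM, so that ribosomes were found on the RNA in the culture where RNA-seq listed none. The footprints passed the threshold (log2 fold change -3.23, SE 0.62, adjusted p = 0.0332, limma) and the RNA did not (adjusted p = 0.0705, limma). With the replicate number as a block, the RNA of Pttg1 passed (adjusted p = 0.0125, limma), and so did that of Cenpn (adjusted p = 0.0121, limma).

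Kinetochore and centromere genes fell in 6 of 7 cases in RNA-seq and in 3 of 7 in footprints, with medians of -2.53 and -3.15. Cenpa, the histone H3 variant that marks the centromere, stood at 63.5 and 84.4 FPKM in OPC RNA-seq and at 16.3 and 19.8 FPKM in oligodendrocytes (log2 fold change -2.02, SE 0.21). In footprints it went from 127 and 174 FPKM to 29.2 and 7.78 FPKM (log2 fold change -3.29, SE 0.69, adjusted p = 0.0413, limma). Spc25, Nuf2 and Ndc80 encode subunits of the Ndc80 complex, which holds the microtubule. Spc25 fell the least, from 37.2 and 60.7 FPKM to 15.0 and 18.5 FPKM in RNA-seq (log2 fold change -1.51, SE 0.28). Ndc80 went from 17.2 and 24.5 FPKM to 2.31 and 1.52 FPKM (log2 fold change -3.39, SE 0.35), and Nuf2 from 28.5 and 34.4 FPKM to 6.55 and 4.36 FPKM (log2 fold change -2.53, SE 0.28). Whether these subunits of a single complex differ from each other in their fall was not tested. In footprints neither Ndc80 nor Nuf2 passed, at adjusted p of 0.0576 and 0.0803 (limma), and their oligodendrocyte replicates stood far apart, at 8.52 and 1.95 FPKM and at 14.5 and 2.38 FPKM. Cenpf fell in footprints (adjusted p = 0.0366, limma), a call that was lost with the replicate number as a block (adjusted p = 0.0760, limma). Cenpe, a kinesin that moves chromosomes to the spindle equator, passed in RNA-seq (log2 fold change -2.65, SE 0.59) and missed the threshold in footprints (log2 fold change -3.14, SE 0.80, adjusted p = 0.0622, limma). Cenpn, which reads the Cenpa nucleosome, had 23.5 and 24.6 FPKM in OPC RNA-seq, 5.79 FPKM in oligodendrocyte replicate 1 and 0 in replicate 2, and it passed in neither kind of library (adjusted p = 0.0770 and 0.160, limma).

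All 3 genes of the chromosomal passenger complex with values fell in both kinds of library. Birc5, or survivin, was at 85.7 and 79.0 FPKM in OPC RNA-seq and at 21.2 and 16.3 FPKM in oligodendrocytes (log2 fold change -2.14, SE 0.19, adjusted p = 0.00152, limma). Its footprints went from 279 and 292 FPKM to 69.0 and 30.3 FPKM. Aurkb, the kinase of the complex, and Cdca8, or borealin, fell by 1.95 (SE 0.20) and by 2.70 (SE 0.31) on the log2 scale in RNA-seq, and by 2.70 (SE 0.43) and 2.38 (SE 0.23) in footprints. Neither had a change of ribosome density past the threshold.

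Spindle motors and proteins that bind spindle microtubules fell in 6 of 6 cases in RNA-seq and in 5 of 6 in footprints. Tpx2, which activates Aurka on the spindle, stood at 58.6 and 56.7 FPKM in OPC RNA-seq and at 17.5 and 9.33 FPKM in oligodendrocytes, and its footprints went from 147 and 163 FPKM to 41.6 and 24.2 FPKM. Kif11, the motor that pushes the spindle poles apart, had 46 and 48.0 FPKM in OPC RNA-seq against 15.7 and 8.44 FPKM. Nusap1, a protein that bundles microtubules near chromosomes, went from 35.4 and 37.2 FPKM to 12.9 and 4.58 FPKM in RNA-seq, and from 152 and 146 FPKM to 53.1 and 38.4 FPKM in footprints. Hmmr had one of the larger RNA-seq falls, from 22.4 and 28.6 FPKM to 5.09 and 0.949 FPKM (log2 fold change -3.44, SE 0.73, adjusted p = 0.0181, limma). Kif22 fell in both kinds of library. Kif18a, a motor that damps chromosome movement, passed in RNA-seq (log2 fold change -2.39, SE 0.36) and missed the threshold in footprints (log2 fold change -3.18, SE 0.99, adjusted p = 0.0956, limma).

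For the last steps of division, 3 of 3 cytokinesis genes fell in RNA-seq and 2 of 3 in footprints. Racgap1, a subunit of the complex that bundles the central spindle, was at 94.6 and 129 FPKM in OPC RNA-seq and at 24.9 and 21.6 FPKM in oligodendrocytes (log2 fold change -2.25, SE 0.21). Prc1, which cross-links the microtubules of the central spindle, went from 61.4 and 65.4 FPKM to 16.4 and 7.88 FPKM. Ect2, the exchange factor that switches on RhoA for the contractile ring, fell in RNA-seq by 3.09 (SE 0.40), and footprints gave 34.9 and 43.9 FPKM in OPCs, 8.48 FPKM in oligodendrocyte replicate 1 and listed at 0 in replicate 2.

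Condensin subunits and topoisomerase fell in 6 of 6 cases in RNA-seq and in 6 of 6 in footprints, with the smallest medians of the roles, -1.92 and -2.10. Top2a, the topoisomerase that untangles sister chromatids, had 82.6 and 112 FPKM in OPC RNA-seq and 24.8 and 23.6 FPKM in oligodendrocytes (log2 fold change -1.99, SE 0.20, adjusted p = 0.00212, limma). Smc2 and Smc4, the ATPase pair at the core of condensin, fell by 1.6 (SE 0.18) and 1.83 (SE 0.21) on the log2 scale in RNA-seq and by 1.66 (SE 0.21) and 2.08 (SE 0.26) in footprints. Ncaph, Ncapg and Ncapd2 are the other subunits of condensin I. Ncapd2 fell by 1.85 (SE 0.21), Ncapg by 2.19 (SE 0.24) and Ncaph by 3.21 (SE 0.37) in RNA-seq, the last from 34.2 and 42.8 FPKM to 5.77 and 2.83 FPKM. Smc2 and Smc4 also serve condensin II, whose subunits were not among the 43.

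Fam72a, for which no role is given here, had 15.9 and 14.8 FPKM in OPC RNA-seq and 0.736 and 1.38 FPKM in oligodendrocytes (log2 fold change -3.79, SE 0.41, adjusted p = 0.00252, limma). Footprints gave 78.0 and 65.6 FPKM in OPCs and were listed at 0 in both oligodendrocyte cultures, so that no fold is given. Among the genes listed at 0, it was the one that was at 0 in the deeper footprint library of oligodendrocytes. In that library, 14.7% of all transcripts in the table were listed at 0.

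**Figure D2:**
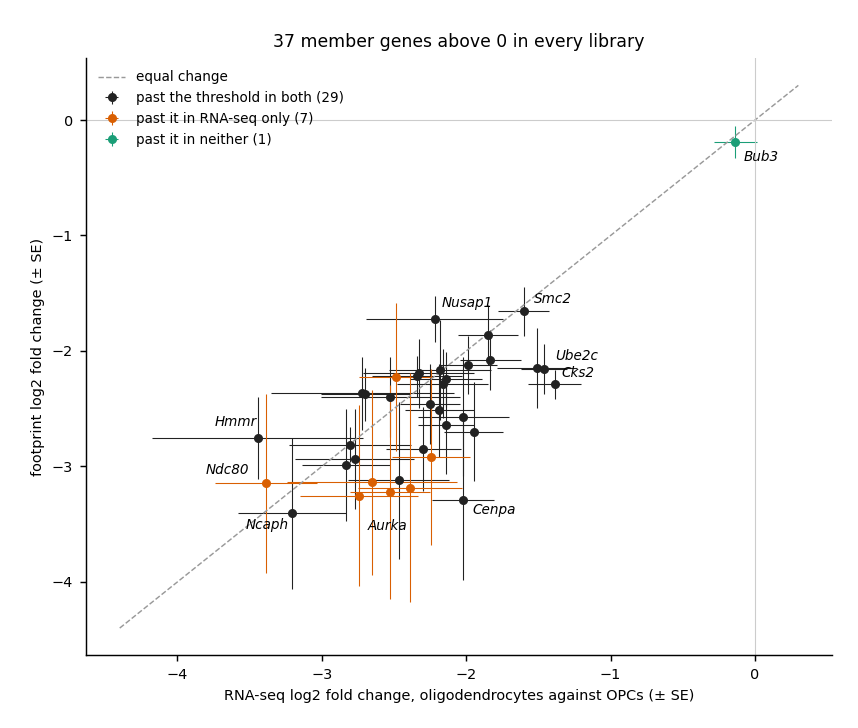
Log2 fold change from OPCs to oligodendrocytes in RNA-seq (horizontal axis) and in footprints (vertical axis) for the 37 genes above 0 in every library, with bars of 1 SE and a dashed line for equal change. Of these genes 29 passed the threshold in both, 7 in RNA-seq only and 1, Bub3, in neither, and most points lie on or below the line.

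Set side by side, 30 genes passed in both RNA-seq and footprints, 10 in RNA-seq only, Pttg1 in footprints only, and Bub3 and Cenpn in neither. The 12 genes that missed the threshold in footprints were Bub1, Ttk, Bub3, Ect2, Cenpn, Ndc80, Cenpe, Nuf2, Aurka, Plk4, Cdc25b and Kif18a. Of these, Bub1, Ttk, Ect2 and Cenpn were listed at 0 in the footprints of oligodendrocyte replicate 2, the shallowest footprint library, at 93.2 Mb. Ttk, the checkpoint kinase also called Mps1, had 33.8 and 35.2 FPKM in OPC footprints and 9.91 FPKM in oligodendrocyte replicate 1. At the estimated depth, and at the level of replicate 1, about 77 reads of 30 bases would have been expected on its coding sequence in replicate 2.

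Ribosome density, the footprint FPKM divided by the RNA-seq FPKM of the same culture, asks whether ribosomes left these RNAs beyond the fall of the RNA itself. A change of ribosome density passed the threshold for 0 of 43 genes (limma interaction over 8 libraries) and for 1 of 8056 transcripts, or 0.0124%. At an unadjusted p under 0.05 there were 3 of 43, and 4.8% of all transcripts. The log2 change was below 0 for 32 of 43 genes, beside 3406 of 8056 transcripts. Its median was -0.21 beside 0.10 for all transcripts, or -0.37 beside -0.06 with libraries scaled by the median of their ratios. Over the 37 genes above 0 in every library, the median was -0.16. The 3 genes at an unadjusted p under 0.05 (limma) were Fam72a, Cks2 and Ube2c. Cks2 had ribosome densities of 5.16 and 4.16 in OPCs and of 2.67 and 2.31 in oligodendrocytes, a log2 change of -0.90 (SE 0.21, adjusted p = 0.718, limma). Ube2c had 4.23 and 4.67 in OPCs and 3.02 and 2.51 in oligodendrocytes, a log2 change of -0.69 (SE 0.27, adjusted p = 0.875, limma). Without OPC replicate 1, the median log2 change of the 43 genes was -0.22 beside 0.07 for all transcripts. Without OPC replicate 2 it was -0.27 beside 0.11.

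Within a culture, the mitotic genes spanned a wide range of ribosome density. In OPC replicate 1 it ran from 0.301 for Plk4 to 5.16 for Cks2, and in OPC replicate 2 from 0.345 to 4.67. Medians of the 43 genes were 1.88 and 1.71 in OPCs, beside 1.72 and 1.77 for all transcripts. In oligodendrocyte replicate 1 the median was 1.92 beside 2.02. In oligodendrocyte replicate 2, where 37 genes had both values, it was 1.21 beside 1.95. Without oligodendrocyte replicate 2, the median log2 change of the 43 genes was -0.09 beside 0.20 for all transcripts, and without replicate 1 it was -0.51 beside 0.03. The members' median was thus below that of all transcripts with either culture left out. Depth was lower in oligodendrocyte replicate 2, and its part in the result was not tested. The 3 largest falls of ribosome density by value (Fam72a, Ttk and Ect2) all rest on a footprint value of 0, and the largest rise (Pttg1) on an RNA value of 0. The next rises, of Hmmr and Nusap1, came from oligodendrocyte replicate 2, with densities of 5.03 and 8.37 against 1.56 and 4.11 in replicate 1.

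**Figure D3:**
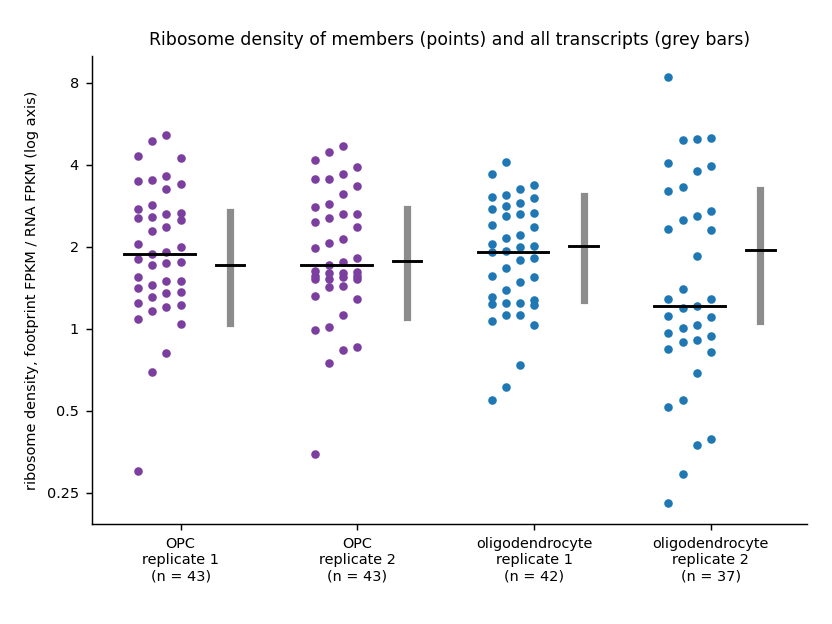
Ribosome density (footprint FPKM over RNA FPKM, log axis) of the genes with both values above 0 in each culture, with a black line at their median and a grey bar for the quartiles of all transcripts with its own median line. The medians of the genes lie near those of all transcripts in 3 cultures and below in oligodendrocyte replicate 2 (1.21 against 1.95).

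The 2 oligodendrocyte cultures differed in how low these genes were. In RNA-seq, replicate 2 was below replicate 1 for 38 of 43 genes, with a median log2 difference of -0.65 beside -0.15 for all transcripts. In footprints it was below for 41 of 43, with a median of -0.94 beside -0.29. The OPC cultures differed less and the other way, replicate 2 being above replicate 1 for 33 of 43 genes in RNA-seq (median 0.25) and for 37 of 43 in footprints (median 0.21). From OPC to oligodendrocyte of the same number, the median log2 change was -1.90 in replicate 1 and -2.95 in replicate 2 for RNA-seq, and -2.0 and -3.19 for footprints. Every one of the 43 genes was lower in both pairs and both kinds of library. The summed oligodendrocyte markers were 4063.1 FPKM in replicate 1 and 3632.6 FPKM in replicate 2, the summed astrocyte markers were 329 and 264.2 FPKM, and depth was lower in replicate 2. The part of these in the difference was not tested.

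Other genes of mitosis were taken from a wider list. Of 101 such genes with values, 63 fell and 1 rose in RNA-seq, beside 20.2% and 13% of all transcripts. In footprints 31 fell and 2 rose, beside 10.8% and 12.8%. The median log2 fold changes were -1.45 and -1.63. Of the 2 that rose in footprints, 1 was among the kinases and entry genes and 1 among the cohesin genes. The centromere and kinetochore genes came closest to the 43, with 19 of 23 lower in RNA-seq and a median of -2.02. Cenps, a centromere protein of that group, had 5.30 and 4.62 FPKM in OPC RNA-seq and was listed at 0 in both oligodendrocyte libraries. Kntc1, in the checkpoint group, encodes a subunit of the RZZ complex, which brings Mad1 and Mad2 to the kinetochore, and went from 12.1 and 11.7 FPKM to 1.49 and 0.695 FPKM (log2 fold change -3.41, SE 0.45). Cohesin and its loaders had a median of -1.09, with 6 of 10 lower. Mau2, a subunit of the cohesin loader, was higher, from 11.8 and 15.6 FPKM to 26.1 and 32.2 FPKM (log2 fold change 1.08, SE 0.23, adjusted p = 0.0189, limma). This call was lost when limma was run without its trend. The RNA-seq log2 fold change of Mau2 ran from 0.88 to 1.28 over 10 alternative settings.

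The anaphase-promoting complex itself contrasted with its partners Cdc20 and Ube2c. Of its 13 core subunits with values, 3 fell in RNA-seq and 0 in footprints (limma), beside 20.2% and 10.8% of all transcripts. At an unadjusted p under 0.05 there were 5 in RNA-seq and 1 in footprints (limma). The medians were -0.35 and -0.02, and the lowest values were -4.79 and -4.53. Anapc13 stood at 59.2 and 75.2 FPKM in OPC RNA-seq and at 80.1 and 71.4 FPKM in oligodendrocytes. The inhibitor of the complex, Fbxo5 or Emi1, fell from 25.9 and 29.9 FPKM to 9.67 and 7.70 FPKM (log2 fold change -1.68, SE 0.22, adjusted p = 0.00453, limma). In these cultures the median of the ubiquitin ligase core was thus near that of all transcripts, while Cdc20 and Ube2c fell in both kinds of library.

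**Figure D4:**
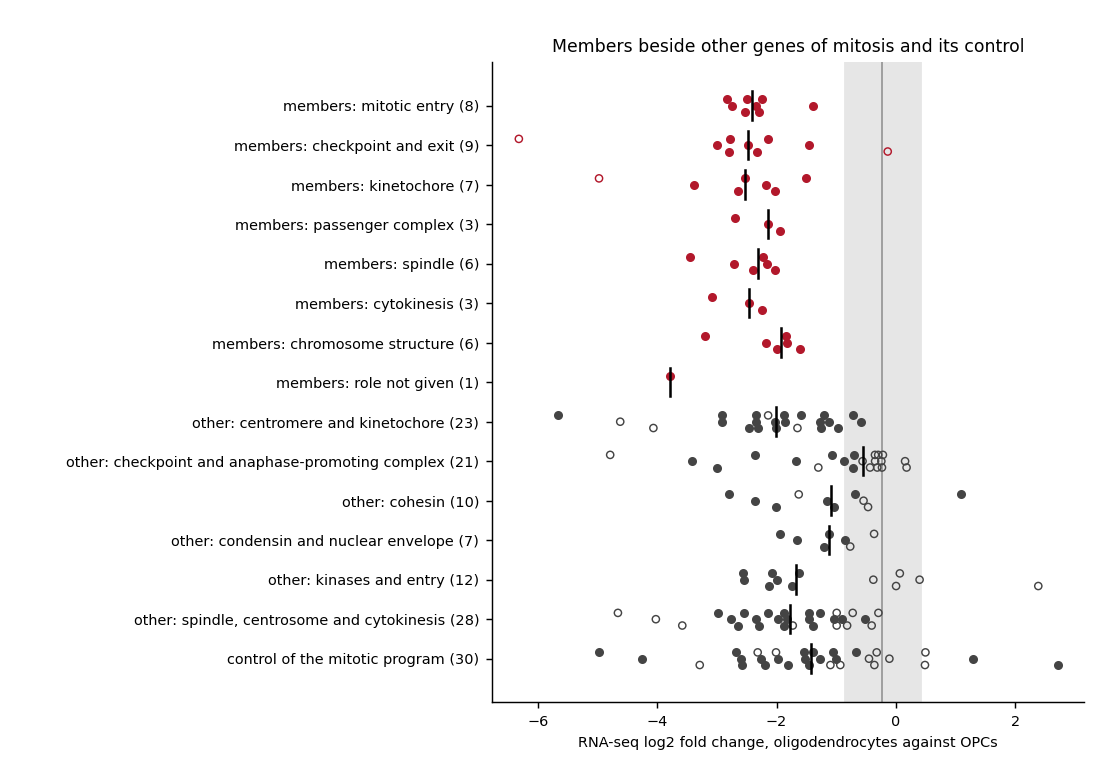
RNA-seq log2 fold change of single genes, with the roles of the 43 genes in red and the other genes of mitosis and its control in grey, filled where past the threshold, black ticks at the medians, and a grey band for the quartiles of all transcripts. The red medians lie between -3.79, which is Fam72a alone, and -1.92. The median of the other checkpoint and anaphase-promoting complex genes, -0.56, lies within the band.

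Of 30 genes that switch the mitotic program on and off, 17 fell and 2 rose in RNA-seq, beside 20.2% and 13% of all transcripts. In footprints 6 fell and 1 rose, beside 10.8% and 12.8%. The MuvB core of proteins binds the CHR, and turns with B-Myb into an activator and with the pocket protein p130 into the repressor DREAM. Mybl2, the gene of B-Myb, went from 11.3 and 7.17 FPKM to 1.65 and 1.21 FPKM in RNA-seq (log2 fold change -2.59, SE 0.41, adjusted p = 0.00743, limma). Rbl2, the gene of p130, rose in RNA-seq from 5.76 and 4.04 FPKM to 12.9 and 11 FPKM (log2 fold change 1.29, SE 0.30, adjusted p = 0.0232, limma). It missed the threshold in footprints (log2 fold change 1.21, adjusted p = 0.137, limma). Its RNA-seq call did not hold when any single culture was left out. The RNA-seq log2 fold change of Rbl2 ran from 1.04 to 1.54 over 10 alternative settings. Of the MuvB subunits, Lin9 and Lin54 fell by 1.81 (SE 0.28) and 1.28 (SE 0.29), and Rbbp4, which also serves other chromatin complexes, had 72.7 and 90.1 FPKM in OPCs against 71.1 and 79.3 FPKM. The G1 cyclin Ccnd2 had 157 and 168 FPKM in OPC RNA-seq and 10.1 and 6.97 FPKM in oligodendrocytes (log2 fold change -4.26, SE 0.22, adjusted p = 0.000407, limma). E2f1, an activator of S-phase genes, had 7.96 and 8.79 FPKM in OPCs, 0.621 FPKM in oligodendrocyte replicate 1 and 0 in replicate 2. Cdkn1c, the kinase inhibitor p57, rose from 2.13 and 2.45 FPKM to 14.3 and 16.8 FPKM (log2 fold change 2.71, SE 0.29) and passed in footprints as well.

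Since the 43 genes moved together, their promoters were searched for the 2 elements of late cell cycle genes. A RefSeq promoter (GRCm38.p6, 250 bases before to 50 bases after the start) was matched for 40 of the 43, the nearest start being taken. The CHR was searched as TTTGAA or TTCGAA and the CCAAT box as CCAAT, both on either strand. A CHR was found in 29 of 40 promoters, or 72.5%, beside 13.9% of 8832 promoters of transcripts in the table and 19.2% of all 32851 RefSeq promoters. With TTTGAA alone the share was 67.5%, beside 12.2%. A CCAAT box was in 75% beside 39.1%, at least 2 of them in 50.0% beside 14.4%, and both elements in 67.5% beside 6.1%. These are matches of letters, not sites shown to be bound.

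In 9 of the 40 promoters both elements lay within the 120 bases before the start, as in 1.3% of 8832. The 5 of these whose Gencode start was at most 30 bases farther upstream are shown, since there the annotations place the start close together, from 120 bases before the RefSeq start up to it, 5′ to 3′ along the gene. Capitals mark the CHR and the CCAAT boxes, on either strand. Cdc20 is at chr4:118437344-118437463 (minus strand), Kif11 at chr19:37376262-37376381 (plus), Cenpn at chr8:116921620-116921739 (plus), Top2a at chr11:99024190-99024309 (minus) and Ect2 at chr3:27153879-27153998 (minus).
Cdc20: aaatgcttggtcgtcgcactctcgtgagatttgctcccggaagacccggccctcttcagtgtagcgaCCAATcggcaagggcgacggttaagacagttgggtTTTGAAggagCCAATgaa
Kif11: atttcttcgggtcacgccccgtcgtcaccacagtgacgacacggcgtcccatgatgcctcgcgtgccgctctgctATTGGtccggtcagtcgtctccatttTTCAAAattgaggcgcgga
Cenpn: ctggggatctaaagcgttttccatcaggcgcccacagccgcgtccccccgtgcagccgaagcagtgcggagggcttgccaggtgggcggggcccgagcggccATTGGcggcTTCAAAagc
Top2a: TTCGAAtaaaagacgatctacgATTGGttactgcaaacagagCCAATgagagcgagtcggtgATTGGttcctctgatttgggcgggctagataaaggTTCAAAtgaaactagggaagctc
Ect2: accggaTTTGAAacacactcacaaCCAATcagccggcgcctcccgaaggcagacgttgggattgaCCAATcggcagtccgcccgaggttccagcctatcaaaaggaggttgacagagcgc
In Cdc20 the CHR begins at position -18, with CCAAT boxes at -53 and -8, counting back from the base before the start. In Kif11 it begins at -19, with a CCAAT box at -45, and in Cenpn at -9, with a box at -18. Ect2 has CHR letters farther out, at -114, and Top2a has a CHR at -120, another nearer the start, and 3 CCAAT boxes in this stretch. The 5 genes fell by 2.33 (Cdc20), 2.02 (Kif11), 1.99 (Top2a) and 3.09 (Ect2) on the log2 scale in RNA-seq, with Cenpn short of the threshold. The promoter of Bub3 held both elements too, a CHR at -43 and CCAAT boxes at -74 and -32, although its RNA was nearly level. Plk4, Mad2l1, Pttg1, Nuf2, Birc5, Kif18a, Nusap1 and Ncaph had neither in this window. The RefSeq start lay 148 bases from the Gencode start for Bub3, 247 for Mad2l1 and 270 for Pttg1. For these genes the window may therefore not be the promoter of the transcript measured. The factors of the CCAAT box, encoded by Nfya, Nfyb and Nfyc, fell in RNA-seq by 1.39 (SE 0.41), 1.00 (SE 0.29) and 1.54 (SE 0.27), and none of the 3 passed in footprints.

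Some of these genes share sequence with other transcripts, which the mapping could have split. Of all 30-base words of the transcript, 47.1% were found in Gencode transcripts of other genes for Ccnb1, 31.8% for Cks2, 31.2% for Prc1, 30% for Cdc20, 25.1% for Cks1b and 22.3% for Ube2c. For Prc1 and Ncapg the shared part is mostly a stretch that overlaps Rccd1 and Lcorl on the opposite strand, by 815 and 769 bases. The authors' code gives no strand option, so that reads of such partners cannot be told apart in RNA-seq. Bub3 shared 6.49% and Fam72a 0.139%.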

How the data were processed

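Ribosome footprints (micrococcal nuclease, monosomes) and alkali-fragmented total RNA were sequenced from 4 cultures. The authors clipped adapters, aligned reads with HISAT2 2.1.0 to GRCm38 and estimated FPKM with StringTie 1.3.5 on canonical coding transcripts, over the coding sequence for footprints and the whole transcript for RNA, as listed in the submitters' processing notes and the study's methods. The deposited FPKM were used unchanged. Transcripts averaging 1 FPKM or more were tested on log2(FPKM + 0.1) with limma 3.58.1 (R 4.3.3, trend), separately for RNA-seq and footprints, and ribosome density as an interaction over 8 libraries, with Benjamini-Hochberg adjustment and a threshold of 0.05. A fold change on this scale understates that of low genes above 0. A value listed at 0 in a single oligodendrocyte library enlarges the fall instead. For Pttg1 in RNA-seq the log2 fold change was -6.32, beside -2.34 from OPC to oligodendrocyte of replicate 1. P-values weigh a difference between group means against the spread between 2 cultures, moderated toward a trend over all transcripts tested. For ribosome density, the footprint and RNA-seq libraries of a culture were treated as independent.

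Oligodendrocytes came from the OPCs of the same replicate number, and same-numbered libraries deviated together with a Pearson r of 0.108 in RNA-seq and 0.0860 in footprints across transcripts. The replicate block was an alternative, as were another pseudocount, minimum, scaling, no trend and leaving out each culture. The tests were checked on simulated data. Depth is an estimate, since FPKM carry no counts.

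The members and gene lists were chosen with earlier results of these data known. Values were printed for the 3 highest genes of each role, for those not called in both kinds of library, and for the extremes of change. Further genes, Fbxo5, Anapc13, Kntc1, Rbbp4, the Lin and Nfy genes, and the ribosome density of Cks2 and Ube2c, were named after their values were seen.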

Additional observations from a re-analysis of the deposited data

How the results depend on the processing

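Counts of calls moved more than fold changes. Leaving out 1 culture gave 364 to 2599 transcripts called in RNA-seq (2772 with all) and 0 to 3442 in footprints (1969), 4 to 42 and 0 to 42 of the 43 genes, and 3 to 69 and 0 to 62 of the other mitosis genes called lower. For ribosome density it gave 0 to 883 transcripts (1 with all) and 0 to 8 of the 43 genes. The median log2 fold change of the 43 stayed between -2.79 and -1.99 in RNA-seq and between -3.11 and -2.07 in footprints. Without the trend, footprints gave 1036 transcripts, 15 of the 43 genes and 18 other mitosis genes, and ribosome density 14 transcripts and 1 of the 43 genes. Scaling by the median of ratios gave 3 transcripts for ribosome density, and a culture block 0. With the replicate block, 42 of the 43 genes were called in RNA-seq and 30 in footprints. Beside Pttg1, Cenpn and Cenpf the block changed no call of a member. Bub3 turned to 0.04 in RNA-seq under median-ratio scaling. Without oligodendrocyte replicate 2, the ribosome density changes turned to 0.00 for Ttk, 0.41 for Ect2, -0.10 for Hmmr and -0.01 for Nusap1. Leaving out each culture gave these genes ranges of -5.28 to 0.00 (Ttk), -5.05 to 0.41 (Ect2) and -0.10 to 1.48 (Hmmr). The cause of these moves was not tested. With 2 cultures a group, values in the oligodendrocyte replicate 2 libraries, at 93.2 and 77.9 Mb, are the least certain. Listing at 0 there was not confined to low genes. Ptma, at 989.3 FPKM in the footprints of replicate 1, and Hes7, at 3605 FPKM in its RNA-seq, were both listed at 0 in replicate 2.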

Other observations

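The 43 genes had more exons and a longer coding sequence than the transcripts of the table at large, with medians of 14 exons beside 8 and of 1809 coding bases beside 1374, while their transcripts were shorter, at 2489 beside 2919 bases. Among lysine codons of a coding sequence, the share of AAA had a median of 0.444 over the 43 genes and of 0.368 over all. Among phenylalanine codons, the share of UUU had medians of 0.529 and 0.429. Of the 43 genes, 31 lay above the median of all transcripts for each of these shares. No relation of these features to the changes was tested.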
